A study of Flaveria robusta and Flaveria sonorensis and Flaveria ramosissima with 24 samples.

Results

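The genes examined here were those whose transcripts were listed in leaves of Flaveria trinervia and in no other species of the series. A gene was a member when its deposited TPM (a transcript abundance corrected for gene length and scaled to the total of the library) was 0 in all 18 libraries of F. robusta, F. sonorensis and F. ramosissima, and its mean TPM over the 6 F. trinervia libraries was 1 or more. This rule gave 161 members of 29562 rows in the table, and of 13873 genes with a mean TPM of 1 or more in F. trinervia. The reference behind each species is unknown, and so is how genes of the 4 species were brought onto common rows. A value of 0 may therefore stand for a transcript that was not made or for a gene with no counterpart in the reference of that species, and these cannot be told apart. For this reason the members are described as listed in F. trinervia only, and their absence elsewhere is not treated as a result. The rows carry gene numbers without names, so no function can be given for any member, and the labelled tissue could not be checked against marker genes.

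The F. trinervia libraries came from newly expanded mature leaves of plants kept at a low CO2 setting of 100 for 2 weeks or at a control setting of 380, with 3 libraries in each group. The labels write both settings in µmol m-2 s-1, the unit they also use for light, without saying how it applies to CO2. All plants were under light of 200 µmol m-2 s-1 for 16 h a day with 8 h of darkness, at 22 °C and 70% humidity, and no genotype or plant age is given in the labels of these libraries. F. robusta (C3), F. sonorensis and F. ramosissima (both C3-C4 intermediate) were sampled in the same design, 3 libraries per treatment, which makes 24 libraries in all. The labels do not say whether replicates came from separate plants, so p-values measure only the spread between libraries, which may be technical. TPM keeps no record of depth, so no counting error can be given.

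F. trinervia is a C4 plant. In C4 leaves CO2 is first fixed in mesophyll cells by phosphoenolpyruvate carboxylase, and the C4 acids formed are decarboxylated around Rubisco in the bundle sheath, which keeps CO2 high at the carboxylating enzyme and photorespiration low. C3 relatives fix CO2 with Rubisco alone and lose more carbon to photorespiration when CO2 falls, whereas C3-C4 intermediates recapture part of that carbon in the bundle sheath. Leaf RNA mixes all these cell types, so that fewer cells of a type and less RNA per cell cannot be told apart.

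The members fell into a few very abundant genes and many scarce ones. Most were close to the limit of the rule: the median of the mean TPM was 2.94, the lower quartile 1.58 and the upper quartile 8.19. Over all 13873 genes tested in F. trinervia the median was 8.51. A mean TPM below 2 was found for 58 members (36.0%, against 12.8% of all genes tested), and 37 members (23.0%, against 45.6%) had a mean of 10 or more. At the upper end, 6 members had a mean TPM of 1000 or more, which was 3.73% of the members and 0.980% of all genes tested. Gene11780 was among these 6 only through low CO2 replicate 2. These comparisons describe a set chosen by its level and were not tested.

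The most abundant member was Gene06095, which ranked 9 among all F. trinervia genes by mean TPM. Its TPM was 6628, 8745 and 11303 in control replicates 1 to 3 and 11266, 6351 and 7750 in low CO2 replicates 1 to 3. The groups overlapped over nearly their whole range, and the log2 fold change of -0.08 (limma adjusted p = 0.915, SE 0.273) was smaller than the spread between replicates. Its sign turned to 0.04 under median-of-ratios scaling and to 0.11 without control replicate 3 or low CO2 replicate 2.

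Gene13996 (rank 47) had a TPM of 3633, 2522 and 3410 in the controls and 2871, 2258 and 3602 at low CO2. Gene04825 (rank 97) had 1482, 1728 and 1120 in the controls and 1145, 2140 and 1365 at low CO2. Gene05389 (rank 125) stood at 978, 1018 and 1047 in the controls and at 1171, 880 and 1439 at low CO2. The groups overlapped in each of these 3 genes. Gene05556 (rank 129) had 852, 1068 and 1167 in the controls and 1220, 1008 and 1061 at low CO2, and Gene02581 (rank 737) had 122, 149 and 126 against 116, 187 and 168. The log2 fold changes of these 5 genes lay between -0.14 and 0.22, none past the threshold (limma adjusted p between 0.674 and 0.923). The highest of the low CO2 libraries was replicate 3 in Gene13996 and Gene05389, replicate 2 in Gene04825 and Gene02581 and replicate 1 in Gene05556.

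Gene11780 was among the 6 members with a mean TPM of 1000 or more only through a single library. Its TPM was 180, 238 and 223 in the controls and 92.4 and 120 in low CO2 replicates 1 and 3, but 7079 in low CO2 replicate 2. With all 6 libraries the log2 fold change was 1.01 with an SE of 1.48 (limma adjusted p = 0.780). Without low CO2 replicate 2 the change turned to -1.01 and was called (limma adjusted p = 0.0200, the lowest over the alternatives, which reached up to 0.935). Over all genes tested that library correlated more with the controls (Spearman 0.909 to 0.940) than with low CO2 replicates 1 and 3 (0.888 and 0.903). Low CO2 replicates 1 and 3 correlated at 0.963 with each other and at 0.872 to 0.906 with the controls. Across the 161 members, which are genes and not independent replicates, low CO2 replicate 2 correlated with replicates 1 and 3 at 0.658 and 0.669. Those replicates correlated at 0.901 with each other. With control replicates 1 to 3 the Spearman correlation of low CO2 replicate 2 was 0.796, 0.825 and 0.782.

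**Figure D1:**
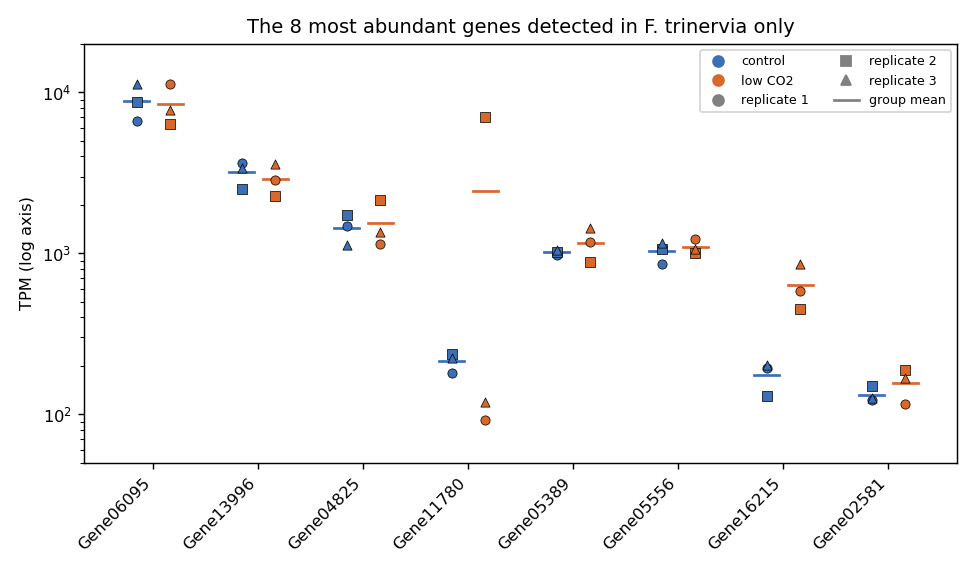
TPM (log axis) of the 8 most abundant genes listed in F. trinervia only, with 3 control (blue) and 3 low CO2 (orange) libraries per gene. Symbols give the replicate number and lines the group means. In Gene11780 low CO2 replicate 2 stood at 7079 TPM, far above the other libraries, and in Gene16215 all 3 low CO2 libraries lay above the controls.

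The part of the F. trinervia transcriptome held by the members was examined next. Their share of the summed TPM was 1.69%, 1.87% and 2.18% in control replicates 1 to 3 and 2.13%, 2.44% and 1.89% in low CO2 replicates 1 to 3. The means were 1.92% ± 0.250 for the controls and 2.15% ± 0.278 for the low CO2 group (SD, n = 3 each). The difference of 0.236 percentage points was within the spread between replicates (two-sided exact permutation p = 0.4, where 3 libraries against 3 allow no p below 0.1). Gene11780 alone made up 0.786% of the summed TPM in low CO2 replicate 2 and at most 0.0259% in any other library. Without this gene, a comparison chosen after the values were seen, the shares were 1.89% ± 0.248 and 1.88% ± 0.232 (SD, n = 3, exact permutation p = 0.9).

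The share rested on few genes. Gene06095 carried 46.4% of the summed TPM of all members over the 6 libraries, the 3 most abundant members 70.7% and the 6 most abundant 89.3%. The other 155 members together held 0.205% ± 0.00152 (SD, n = 3) of the summed TPM in control air and 0.230% ± 0.0254 at low CO2 (exact permutation p = 0.4). The 3 controls lay close to each other at 0.204% to 0.207%, whereas low CO2 replicates 1 to 3 were at 0.202%, 0.251% and 0.238%.

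**Figure D2:**
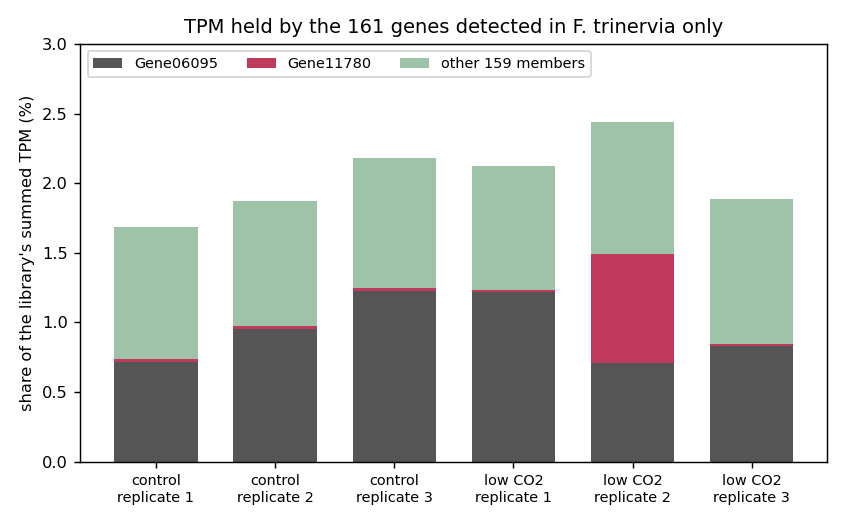
Share of each F. trinervia library's summed TPM (percent, bars from 0) held by the 161 genes, split into Gene06095, Gene11780 and the other 159. The totals run from 1.69% to 2.44%, and Gene11780 is visible as a wide band only in low CO2 replicate 2.

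The mirrored rule was then applied to each of the other species, to show whether such a set was larger or smaller elsewhere. In F. robusta 208 genes were listed in that species only (1.47% of its 14194 genes with a mean TPM of 1 or more), in F. sonorensis 244 (1.69% of 14436) and in F. ramosissima 2595 (16.3% of 15899), against 161 (1.16% of 13873) in F. trinervia. The F. trinervia set was thus the smallest by count. Its share of TPM, 1.69% to 2.44% over the 6 libraries, lay above that of the F. robusta set (0.317% to 0.428%) and the F. sonorensis set (0.491% to 0.583%), with no overlap between libraries, and below that of F. ramosissima (8.10% to 8.77%). The place above F. robusta and F. sonorensis rested on the 6 most abundant members, without which the F. trinervia share was 0.202% to 0.251%. The sets of the other species were not trimmed in this way. The median of the mean TPM was 3.71 in F. robusta, 2.39 in F. sonorensis and 4.84 in F. ramosissima, against 2.94 in F. trinervia. The most abundant gene of such a set reached a mean TPM of 720 in F. robusta, 908 in F. sonorensis and 5343 in F. ramosissima, against 8674 for Gene06095. These levels were not tested between species, because each species may have had a reference of its own.

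Within F. trinervia the members were the end of a wider pattern. Of the 13873 genes, 10618 (76.5%) had a TPM above 0 in at least 1 library of each of the other 3 species. A further 807 genes (5.82%) were listed at 0 throughout F. robusta and F. sonorensis but not F. ramosissima, 139 (1.00%) were at 0 in F. sonorensis and F. ramosissima only, and 80 (0.577%) in F. robusta and F. ramosissima only. The median TPM in F. trinervia was 10.01 for the genes found in all 4 species, 4.99 for those shared with F. ramosissima alone, 2.83 for those shared with F. robusta alone and 3.12 for those shared with F. sonorensis alone.

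The limit at 0 was strict, and allowing a mean TPM below 0.1 in each other species gave 224 genes instead of 161. A single one of the 18 other libraries was above 0 for 17 genes, with a TPM of 0.01 to 0.4, of which 11 had it in F. ramosissima, 5 in F. robusta and 1 in F. sonorensis. A further 16 genes were above 0 in 2 of the 18 libraries and 19 in 3 of them, with a TPM of up to 1.9 and 8.4. On the side of the level, the members nearest to the limit were Gene13519 with a mean TPM of 1 and Gene05321 with 1.02, and the nearest genes outside it were Gene10669 with 0.997 and Gene17207 with 0.993. Gene13519 had a TPM of 1.29, 0.82 and 0.5 in the controls and 1.41, 0.83 and 1.15 at low CO2, and Gene10669 had 0, 1.31 and 1.33 in the controls and 1.21, 1.36 and 0.77 at low CO2. The values of these genes on either side of the limit overlapped. In all, 671 genes had any TPM above 0 in F. trinervia only, and 23.99% of them reached the limit.

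Detection of the members was even across the libraries. A TPM above 0 was found in all 6 libraries for 150 members, in 5 for 5, in 4 for 5 and in 3 for 1. Between 159 and 160 members were above 0 in each control library, and 156, 159 and 154 in low CO2 replicates 1 to 3. The mean TPM was below 1 in control air for 12 members and at low CO2 for 15, so these 27 met the rule through the group in which they were higher, and 134 had a mean of 1 or more in both groups.

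The place of the members in the gene numbering of the table, which the rule did not use, was uneven. Gene numbers up to 20000 held 156 of 161 members (96.9%), against 52.8% of all rows and 57.0% of the genes tested in F. trinervia. The members were spread over that range, with 12 to 24 in each block of 2000 numbers up to 18000 and 6 in the next block. Only Gene23182, Gene25448, Gene25503, Gene26623 and Gene27419 had higher numbers. The species-only sets of F. robusta (96.2%) and F. sonorensis (96.3%) had the same skew, whereas only 14.4% of the F. ramosissima set had numbers up to 20000. Neighbouring numbers were rare, with 2 pairs among the members, Gene13381 with Gene13382 and Gene16972 with Gene16973. What the numbering stands for is unknown.

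**Figure D3:**
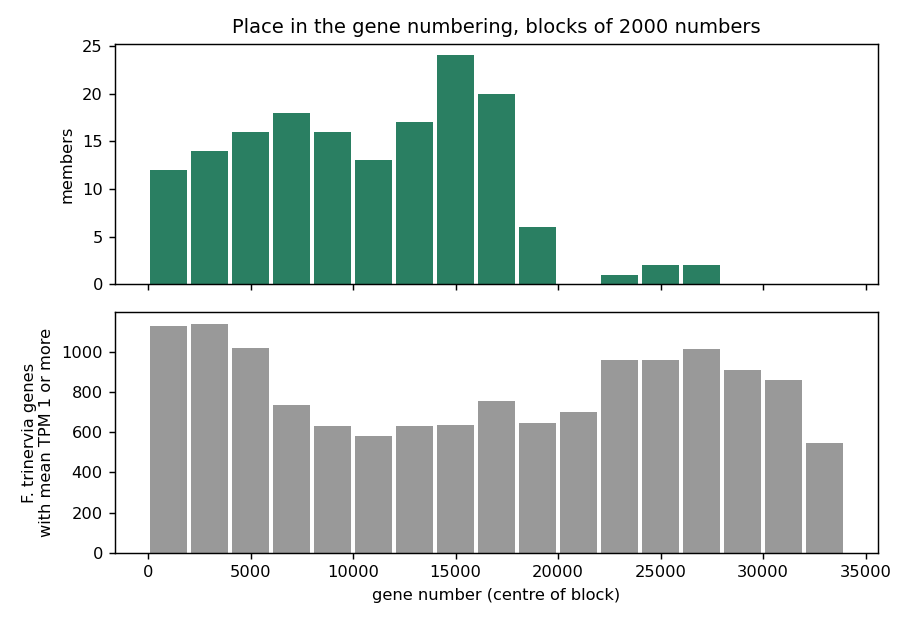
Number of genes listed in F. trinervia only (upper panel) and of all F. trinervia genes with a mean TPM of 1 or more (lower panel) in consecutive blocks of 2000 gene numbers. The members lie in the first blocks, 156 of 161 at numbers up to 20000, while the tested genes continue to the end of the numbering.

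To find out how the members responded to low CO2, the 3 low CO2 libraries were compared with the 3 controls by limma on log2(TPM + 1), fitted over all 13873 genes with p-values adjusted over all of them. Of the 161 members, 7 (4.35%) passed an adjusted p of 0.05 and are called changed, 2 of them higher and 5 lower. Over all genes tested 1.59% were called, 0.18% higher and 1.41% lower (25 and 195 genes, and 39 and 125 under quantile normalization). Of the 7 called members, 3 (Gene15980, Gene10358 and Gene11101) were among the 27 that met the rule through the group in which they were higher, and such genes had to differ. These 3 were 11.1% of the 27, near the 9.83% called among the 722 such genes tested. Among the 134 members with a mean TPM of 1 or more in both groups 4 were called (2.99%), against 1.13% of the 13151 genes tested that met the same condition. A fold change on this scale understates the change of scarce genes. The median log2 fold change of the members was -0.08, against -0.12 over all genes tested, and 57.1% of members and 63.2% of all genes were below 0. Under quantile normalization these medians were 0.05 and 0.06, so the sign of both medians depended on the scaling.

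The number of called members depended on single libraries. Leaving out control replicate 1, 2 or 3 gave 1, 8 or 2 called members (0.621%, 4.97% or 1.24%, against 0.115%, 2.03% or 0.324% of all genes tested). Leaving out low CO2 replicate 1, 2 or 3 gave 3, 37 or 2 (1.86%, 23.0% or 1.24%, against 0.721%, 15.4% or 0.296%). The scaling also mattered: 3 members (1.86%) were called under median-of-ratios scaling, against 1.36% of all genes, and 3 under quantile normalization, against 1.18%, both near the background.

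**Figure D4:**
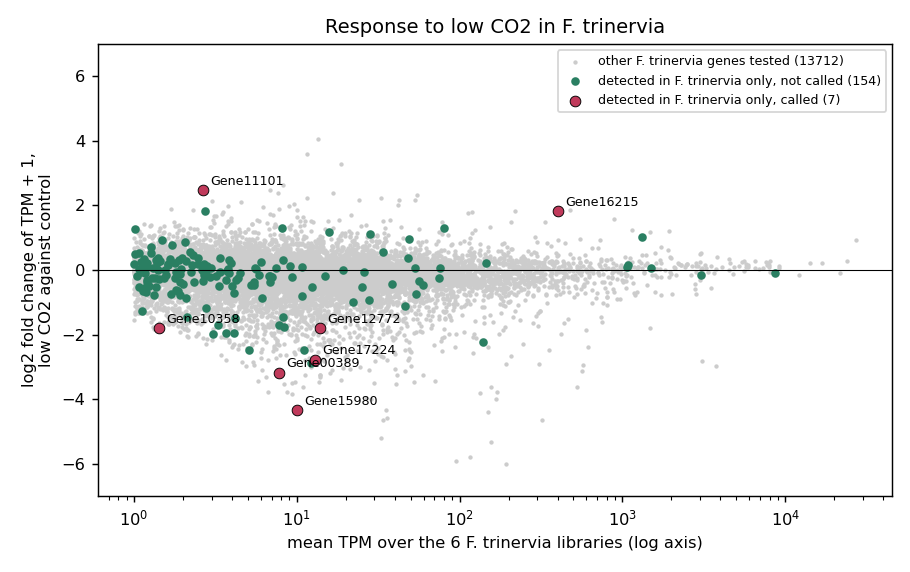
Log2 fold change of TPM + 1 at low CO2 against control in F. trinervia (vertical axis) by mean TPM over the 6 libraries (horizontal log axis), for all genes tested (grey) and for the genes listed in F. trinervia only (green, and red where called). The 7 called members are named, with fold changes from -4.35 for Gene15980 to 2.48 for Gene11101.

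The member with the lowest change, Gene15980, was listed at 0 in all 3 low CO2 libraries. In the controls its TPM was 20.2, 13.7 and 26.1, so the groups did not overlap. The fitted log2 fold change was -4.35 (limma adjusted p = 0.00146, SE 0.251). This value depends on the added pseudocount, since it was -7.60 with a pseudocount of 0.1, and no fold can be stated against a group at 0. It was the only one of the 7 that was called under all 14 alternatives (limma adjusted p from 0.000399 to 0.0337).

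Gene00389 had a TPM of 13.6, 12.7 and 16.4 in the controls and 0, 3.68 and 0 at low CO2, with a fitted log2 change of -3.18 (limma adjusted p = 0.0455, SE 0.570). Gene17224 had 25.99, 32.3 and 11.6 in the controls and 1.05, 5.49 and 1.62 at low CO2, with a log2 change of -2.78 (limma adjusted p = 0.0492, SE 0.508). In both genes low CO2 replicate 2 was the highest of the low CO2 libraries but still below every control. Both calls lay next to the threshold and were kept only without low CO2 replicate 2 (limma adjusted p = 0.000162 and 0.00359) and with a prior spread without trend. They were lost without any of the other libraries (range over all alternatives up to 0.179 and 0.204).

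Gene12772 fell from 25.4, 13.7 and 27.3 TPM to 4.13, 6.89 and 5.53, by 1.79 on the log2 scale (limma adjusted p = 0.0389, SE 0.303). Gene10358, a scarce member with 3.4, 1.95 and 2.96 TPM in the controls and 0, 0 and 0.22 at low CO2, fell by 1.80 (limma adjusted p = 0.0152, SE 0.225). All 3 low CO2 libraries lay below the controls in each. The call of Gene12772 was lost without control replicate 1 (limma adjusted p = 0.186) or 3 (0.157) and without low CO2 replicate 1 (0.0892) or 3 (0.149), and also under median-of-ratios scaling (0.0631), under quantile normalization (0.0674) and without a filter on low values (0.0523). That of Gene10358 was lost without control replicate 1 (0.0915) or 3 (0.0981) and without low CO2 replicate 3 (0.0641).

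The higher members differed widely in level. Gene16215, the only abundant member called, had a TPM of 193, 131 and 202 in the controls and 581, 453 and 863 at low CO2. The groups did not overlap, and the log2 fold change was 1.82 (limma adjusted p = 0.0321, SE 0.287). The call was kept without low CO2 replicate 2 (0.00433) but lost without control replicate 1 (0.129), 2 (0.0561) or 3 (0.119) and without low CO2 replicate 1 (0.0728) or 3 (0.108). Under median-of-ratios scaling the change was 1.94 and not called (limma adjusted p = 0.0687), nor was it called under quantile normalization (0.0595).

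Gene11101 was scarce, with a TPM of 0, 0.31 and 0 in the controls and 6.45, 5.35 and 3.79 at low CO2. Its fitted log2 fold change was 2.48 (limma adjusted p = 0.00615, SE 0.238), and 5.02 with a pseudocount of 0.1. The call was lost without control replicate 1 (limma adjusted p = 0.0529) and kept without any of the other libraries and with the other pseudocount, scalings and priors and without a filter on low values.

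**Figure D5:**
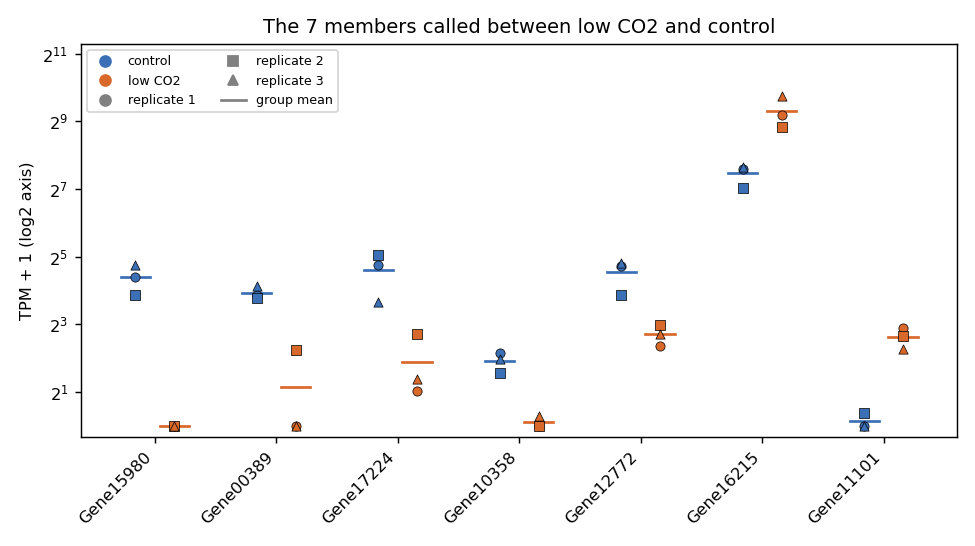
TPM + 1 (log2 axis) of the 7 called members in the 3 control (blue) and 3 low CO2 (orange) libraries of F. trinervia, with symbols for the replicate number and lines for the group means. The groups do not overlap in any of the 7, and Gene15980 stands at 0 TPM in all low CO2 libraries.

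Beyond the called genes, the 3 low CO2 libraries lay wholly above or below the 3 controls in 41 members (25.5%), 14 above and 27 below, against 21.3% of all genes tested (6.7% above and 14.6% below). A share this close to the background is not a result about the members. By the rule for named genes, which took the 4 highest and the 4 lowest changes among these 41, the members described besides the called ones are Gene07045, Gene09490 and Gene07006. Gene07045 had 26.4, 14.4 and 21.0 TPM in the controls and 0.32, 10.2 and 0.63 at low CO2, with a log2 change of -2.86 (limma adjusted p = 0.111, SE 0.752). Gene09490 had 0.16, 0.32 and 1.19 TPM in the controls and 7.61, 1.72 and 5.47 at low CO2 (log2 fold change 1.83, limma adjusted p = 0.0945, SE 0.450). In both, low CO2 replicate 2 was the library nearest to the controls, and both were called without it (limma adjusted p = 0.000626 and 0.00484). Gene09490, with a mean TPM of 0.557 in the controls, was among the 27 members that met the rule through the group in which they were higher. Such a gene had to differ, so its values are no evidence of a response. Gene07006 had 5.39, 4.86 and 2.46 TPM in the controls and 7.15, 13.6 and 15.2 at low CO2, and its log2 fold change of 1.30 was not called under any alternative (limma adjusted p between 0.0761 and 0.371).

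Fold changes of at least 2 on the log2(TPM + 1) scale, up or down, were found in 30 members (18.6%), against 8.91% of all genes tested. Of these 30, 9 were among the 27 members that met the rule through the group in which they were higher. Their share, 33.3%, was near the 33.5% of all such genes tested. Among the 134 members with a mean TPM of 1 or more in both groups it was 21 (15.7%, against 7.56%). The classes by level below hold all 30. The spread between replicates was also wider in the members, with a median residual SD of 0.378 on the log2 scale against 0.293 over all genes. By level, 3 of 58 members with a mean TPM below 2 had such a change (5.17%, against 7.36% of all genes at that level), 15 of 66 between 2 and 10 (22.7%, against 8.98%), 9 of 28 between 10 and 100 (32.1%, against 9.45%) and 3 of 9 at 100 or more (33.3%, against 8.38%). The median residual SD of the members in the same order was 0.339, 0.368, 0.439 and 0.398, and that of all genes lay between 0.283 and 0.298. How far the wider spread accounts for the larger number of changes was not tested.

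The position of low CO2 replicate 2 was followed through the members, because it moved the counts most. In 66 members (41.0%, against 37.6% of all genes tested) it lay within the range of the 3 controls. In 29 of these (18.01% of members, against 17.3% of all genes tested) replicates 1 and 3 both lay outside that range on the same side. A share this close to the background is not a result about the members. The number that corresponds to these 29 was 4 for replicate 1 (2.48%, against 5.78%) and 6 for replicate 3 (3.73%, against 2.24%). In the 29 members replicates 1 and 3 lay below the control range 19 times, and over all genes tested in 1945 of 2398 cases. Without replicate 2 a further 30 members were called, 6 higher and 24 lower, and the 7 members called with all libraries were called again in the same direction. The 37 members called without it were 8 higher and 29 lower, and the 2136 of all genes tested were 389 higher and 1747 lower. The lean to lower calls was thus found over all genes tested and is not a result about the members. Among the 30, replicate 2 lay within the control range in 11, outside it on the same side as the other low CO2 libraries in 15 and beyond the controls on the other side in 4.

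The clearest cases, chosen after their values were seen, were Gene11096, Gene07172 and Gene23182. Gene11096 had 143, 255 and 173 TPM in the controls, 16.0 and 14.3 in low CO2 replicates 1 and 3 and 240 in replicate 2. Gene07172 had 21.7, 12.3 and 13.8 TPM in the controls, 0.1 and 0.21 in replicates 1 and 3 and 18.4 in replicate 2. Gene23182 had 13.4, 7.89 and 7.13 TPM in the controls, 0.3 and 0.87 in replicates 1 and 3 and 19.5 in replicate 2. Replicates 1 and 3 were low and replicate 2 was within or above the control range in all 3 genes. Their log2 fold changes were -2.22, -2.48 and -1.46 with all 6 libraries, none called (limma adjusted p = 0.300, 0.271 and 0.483). Without replicate 2 they were -3.52, -3.84 and -2.70 (limma adjusted p = 0.000773, 0.000541 and 0.00264).

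A member in which a single library was at least 2-fold above all others on the log2(TPM + 1) scale was found 3 times for low CO2 replicate 2, 2 times for low CO2 replicate 3 and for no other library. Over all genes tested the share was 0.750% for low CO2 replicate 2 and between 0.0649% and 0.209% for the other libraries. Gene11780 was by far the most abundant of these members.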

How the data were processed

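Leaf RNA of 4 Flaveria species was sequenced by the authors as Illumina paired reads of 150 bp, and the authors deposited TPM of every gene and library in a joint table. RSEM and edgeR are named in the submitters' processing notes without versions. No source used here names the aligner or the reference of a species. The unit corrects each gene for its length and for the library total, so abundant genes lower all others. The deposited TPM of the F. trinervia libraries summed to between 900289 and 930239. Groups and columns were assigned from the titles and descriptions of the 24 samples. No pair of F. trinervia libraries was a copy: identical values made up at most 0.0966% of those that were 10 or more in both.

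Members were found from the values in hundredths, so that a mean of exactly 1 was compared without rounding error. Only the 6 F. trinervia libraries entered the tests, because members are at 0 elsewhere. Genes whose mean reached 1 TPM were tested on log2(TPM + 1) with limma (version 3.58.1, R 4.3.3, moderated with a trended prior), with Benjamini-Hochberg adjustment over all 13873 genes and a threshold of 0.05. Shares of TPM were tested by exact permutation, two-sided, in scipy 1.17.1. Alternatives covered the pseudocount (0.1), the filter (none, or a mean of 5), the scaling (median-of-ratios or quantile), the prior (untrended or robust), a block for the replicate number, other limits for the members and leaving out each library. The share without Gene11780, and the counts of non-overlapping members without each library, were added after the data were seen.

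The rule for the genes to describe took the 8 members with the highest mean TPM, all called members when 12 or fewer, the 4 highest and 4 lowest log2 fold changes among members whose groups did not overlap, and the 2 genes on each side of the limit on mean TPM. The members and this rule were chosen with earlier results of these data known. Plots used matplotlib 3.10.9 (Python 3.11.15).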

Additional observations from a re-analysis of the deposited data

How the results depend on the processing

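The 7 called members became 5 (3.11%, against 1.1% of all genes tested) with a pseudocount of 0.1. With a robust prior spread 5 were called (3.11%, against 1.49%), and without a filter on low values 4 (2.48%, against 0.917%). A minimum mean TPM of 5 left 59 members, of which 3 were called (5.08%, against 1.55%). Under median-of-ratios scaling 3 were called (1.86%, against 1.36%), and under quantile normalization 3 (1.86%, against 1.18%). Of the 150 members above 0 in all 6 libraries, 3 were called. The share called among all genes tested with the same property was not counted, so this number has no background. Leaving out single libraries gave 1 to 37 called members (0.621% to 23.0%, against 0.115% to 15.4% of all genes tested). For all genes tested, the 220 calls (25 higher, 195 lower) became 139 with a minimum mean TPM of 5, which also tests fewer genes, 164 (39 higher, 125 lower) under quantile normalization, and 16 to 2136 without single libraries. The median log2 fold change of the members was -0.20 with a minimum mean TPM of 5, 0.0524 under quantile normalization and -0.184 to -0.0424 without single libraries. The number of non-overlapping members was 47 to 88 without single libraries, where fewer libraries make overlap less likely. Leaving out control replicate 2 gave 63 (39.1%, against 34.0% of all genes tested), and leaving out low CO2 replicate 2 gave 88 (54.7%, against 52.2%), both near the background. The number of members was 224 when a mean TPM below 0.1 in each other species was allowed and 59 with a mean of 5 or more. The difference in the share of TPM turned to -0.0105 percentage points without Gene11780, and was 0.0915 to 0.370 without single libraries.

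Of the 19 members named by the rule, 205 of 261 alternative values kept their direction and their side of the threshold, 46 lost the call, 2 gained it and 8 turned in direction. The turns were in Gene06095 (0.0404 under median-of-ratios scaling, -0.31 to 0.11 without single libraries), Gene13996 (-0.31 to 0.03), Gene04825 (-0.18 to 0.27), Gene05556 (-0.0311 to 0.195) and Gene11780 (-1.01 to 2.12), the last ranges all without single libraries. A minimum mean TPM of 5 gave no value for members below it. The cause of these changes was not tested.

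Replicate numbers are shared by the groups in the labels, but nothing says that they mark shared plants, so the numbers were not taken to pair the libraries. The deviations of same-numbered libraries from their group means correlated at -0.108, 0.0821 and 0.135 for numbers 1 to 3. Those of libraries with different numbers correlated at -0.169 to 0.118. With 3 libraries per group these values cannot settle whether the libraries were paired. With the replicate block, 23 genes (0.166% of all genes tested) and 1 member (Gene15980, 0.621% of members) were called. In that fit limma's adjusted p was 0.119 for Gene12772, 0.0690 for Gene10358, 0.0541 for Gene16215, 0.0541 for Gene11101, 0.110 for Gene00389 and 0.0727 for Gene17224. TPM gives no depth, so no limit of detection can be stated for a member listed at 0.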
